A study of Mus musculus with 2 samples.

Results

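Satb1, Zeb1, Zeb2, Arid5a and Arid5b encode DNA-binding proteins that act on chromatin, and binding of the transcription factor Foxf2 was examined around these 5 of the 22367 protein-coding genes annotated on the chromosomes in the peak list. Foxf2, a forkhead protein made in palatal mesenchyme, was mapped by chromatin immunoprecipitation and sequencing (ChIP-seq) in mouse palatal shelves, the outgrowths of the upper jaw that fuse into the palate. Shelves came from E13.5 embryos whose own Foxf2 alleles, both of them, had been edited with CRISPR/Cas9 to carry a 3xFLAG tag, and 50 pairs were pooled. The data were 1 anti-FLAG ChIP library of 26849463 tags (counted sequencing reads) and 1 input library of about 19200000 tags (worked out from the scaled tag numbers) from chromatin without antibody, both labelled palate cells of the same stage. Neither had a replicate, and a control with anti-FLAG antibody in untagged embryos was not analysed here. The authors' list held 9165 peaks, regions of at least 10-fold excess over input.

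The genes were chosen by their peaks in this same list, so the numbers, positions and scores of their peaks are a description and were not tested. A peak was counted for a gene when its centre lay inside the gene, or within 300 kb of one of its transcription start sites (TSSs) with no other protein-coding TSS nearer. By this rule 16 of the 9165 peaks belonged to the 5 genes: 7 to Arid5b, 4 each to Satb1 and Zeb2, 1 to Zeb1 and none to Arid5a. In all, 25.0% of protein-coding genes had at least 1 peak, 1.76% had at least 4 and 0.317% had at least 7. Since the genes were picked with these counts known, nothing is read from that contrast.

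Forkhead proteins such as Foxf2 bind DNA through a winged-helix domain that reads a core of the form TAAACA or a close variant. Satb1 carries CUT domains and a homeodomain, binds AT-rich DNA and holds chromatin loops together. Zeb1 and Zeb2 are zinc finger repressors that bind E-boxes, silence epithelial genes such as the cadherin gene Cdh1 and act in epithelial-mesenchymal transition and in the neural crest, the source of most palatal mesenchyme. Arid5a and Arid5b carry an AT-rich interaction domain. Arid5b works with the histone demethylase Phf2, and both proteins have been linked to cartilage formation. Mice without Zeb1 have cleft palate, as do mice without Foxf2.

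The 16 peaks ranged from very strong to the weakest that the caller kept. Their scores (the peak caller's own measure) ran from 17, the lowest in the whole list, to 171, with a median of 20.5 against 25 for all peaks. Of the 16, 6 (37.5%) scored above that overall median, as did 48.7% of all peaks. Their ChIP tags ran from 15 to 177 (median 28, against 30 overall) and their input tags from 0 to 9 (median 1, against 2 overall). At most 20 ChIP tags were counted in 7 of the 16 and in 29.0% of all peaks. Single peaks of that size carry wide counting intervals, which are given below as exact 95% intervals and cover counting error only. The intervals do not allow for the 10-fold limit that every listed peak had already passed, so folds of shallow peaks may be too high. In bulk chromatin, binding in fewer cells and weaker binding in each cell cannot be told apart.

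**Figure D1:**
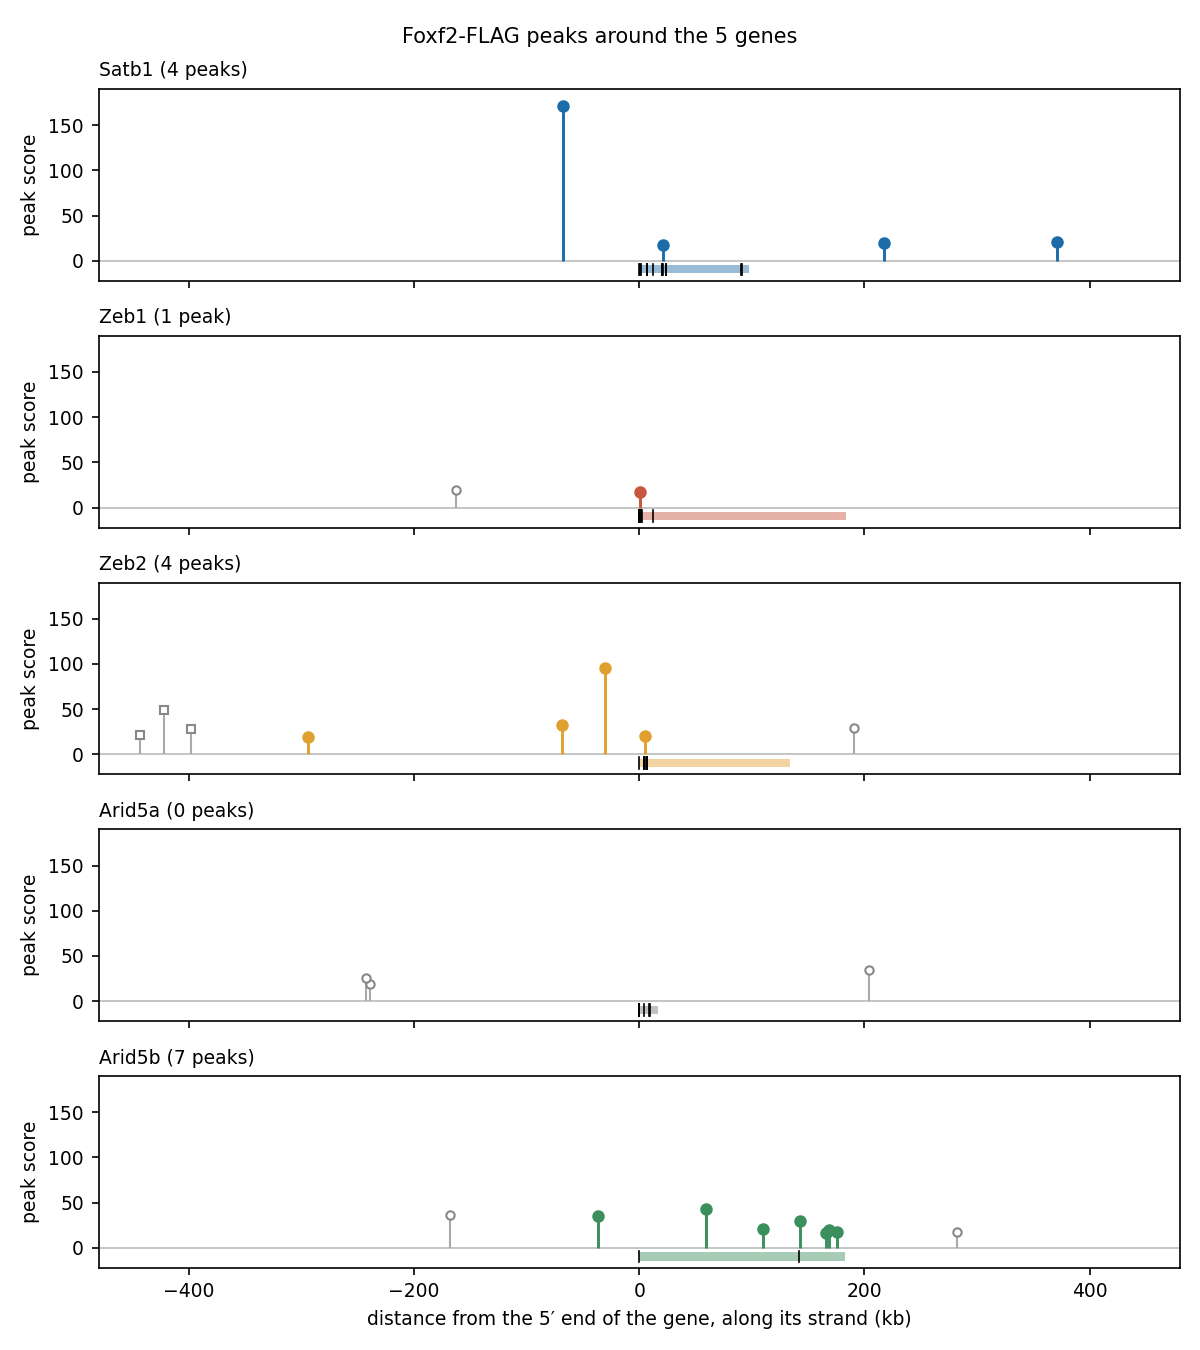
Foxf2-FLAG peaks around each gene. Score (y axis) is plotted against distance from the gene's 5′ end along its strand (x axis, kb), with the gene as a bar and its annotated TSSs as black ticks. Filled points are the peaks counted for the gene, open circles peaks within 300 kb with another TSS nearer, and open squares peaks beyond 300 kb (1 more of Zeb2, at 961.1 kb, is off the axis). The tall Satb1 point upstream of the gene scored 171, and the 6 points above the Arid5b bar lie within the gene.

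Satb1 (ENSMUSG00000023927.7, mm9 chromosome 17:51875512-51972615, minus strand, 97.1 kb) had the strongest peak of the group. It lay 67.3 kb upstream of the gene at 52039535-52040301, and the nearest annotated gene other than Satb1, a microRNA gene, was 504.4 kb from it. Over its 766 bp, 177 tags came from the ChIP and 6 from the input, which is 21.1-fold in the authors' deposited table after scaling for depth (95% interval 9.52 to 58.4). Its score of 171 was the 10th highest of all 9165 peaks. The other 3 Satb1 peaks scored 18, 20 and 21, below the overall median, so the gene combined 1 very high and 3 low peaks.

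The low peaks lay at an internal start and downstream of Satb1. One, at 51951479-51952336, was centred 98 bp after the start of the coding transcript Satb1-004, in intron 1 of the longer transcript Satb1-001, and 20.7 kb into the gene. It was 857 bp wide and GC-rich (63.0% in the central 200 bp), with 45 ChIP tags against 2 (16.1-fold, 4.21 to 137). The remaining pair was intergenic, beyond the 3′ end of the gene. The nearer, 217.5 kb past the gene's 5′ end and 126.5 kb from its nearest annotated start, held 20 ChIP tags against 1 (14.3-fold, 2.29 to 594), and the farther, 371.1 kb past the 5′ end and 280.1 kb from a start, held 28 against 1 (20.1-fold, 3.32 to 820). No protein-coding TSS other than those of Satb1 lay within 300 kb of its starts: the next were Tbc1d5, 562.9 kb away on the downstream side, and Kcnh8, 892.5 kb away on the upstream side. The farther downstream peak was almost as close to Tbc1d5 (282.8 kb) as to its nearest Satb1 start (280.1 kb), so its assignment to Satb1 was a narrow one. The rule gave Satb1 672.5 kb of sequence, so its density was 5.95 peaks per Mb of that sequence, against 3.58 per Mb of sequenced genome for all peaks. The gene was picked by its peaks, so nothing is read from this difference.

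A forkhead site was defined as GTAAACA or ATAAACA or GTAAATA or ATAAATA on either strand. All 4 Satb1 peaks held a GTAAACA site somewhere in the region, but it fell within 100 bp of the centre in 1 of them. Any of the forkhead sites occurred in 64.3% of all peaks over their whole width, and the share with GTAAACA alone was not worked out. In the strongest peak the site lay 129 bp from the centre, and a second site, ATAAATA, lay 355 bp on the other side. A 200 bp stretch of this peak and one of the downstream peak with a central site are printed to show the sequence around the site in peaks of scores 171 and 20. The site itself is the same in both because the search was for exact matches. Both are plus strand, mm9, with the forkhead site in capitals.
Satb1 67.3 kb upstream, chr17:52039690-52039889: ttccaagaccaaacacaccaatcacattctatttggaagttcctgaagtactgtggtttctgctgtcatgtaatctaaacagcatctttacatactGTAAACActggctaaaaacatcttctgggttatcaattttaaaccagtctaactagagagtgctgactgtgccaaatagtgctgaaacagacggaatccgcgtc
Satb1 217.5 kb past the 5′ end, chr17:51755046-51755245: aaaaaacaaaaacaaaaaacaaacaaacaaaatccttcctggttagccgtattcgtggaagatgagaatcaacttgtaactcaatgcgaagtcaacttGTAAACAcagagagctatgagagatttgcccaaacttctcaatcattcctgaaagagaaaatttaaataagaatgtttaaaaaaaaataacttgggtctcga

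Zeb2 (ENSMUSG00000026872.8, chromosome 2:44839154-44972915, minus strand, 133.8 kb) had 3 of its 4 peaks upstream of the gene. The strongest, at 45002787-45003415 and 30.2 kb upstream, scored 95 (rank 206 of 9165) and held 98 ChIP tags against 4 input tags (17.6-fold, 6.64 to 65.7). In the whole genome 0.858% of protein-coding genes had a peak of score 95 or more by the same rule, Satb1 and Zeb2 among them. The next peak, 68.4 kb upstream at 45041052-45041552, scored 33 with 60 tags against 3 (14.3-fold, 4.67 to 71.4). Both were intergenic and AT-rich, with 30% and 35.0% GC in the central 200 bp, against a median of 43.0% for all peaks farther than 1 kb from a TSS.

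The other Zeb2 peaks were shallow. One lay in intron 2 of Zeb2-001, 5.4 kb into the gene at 44967307-44967807, and also within the long non-coding RNA gene Gm13476. It was 961 bp upstream of the non-coding transcript Zeb2-008 and 1242 bp downstream of the nearest start of a coding transcript. It held 20 ChIP tags and no input tag. The deposited fold of 28.7 rests on 0.5 written in place of 0. Set against a floor of 3 input tags the fold was 4.77, and the lower limit of its exact 95% interval was 3.54. The last, 294.2 kb upstream, held 20 tags against 1 (14.3-fold, 2.29 to 594) and scored 19. It was just inside the 300 kb limit.

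Upstream of Zeb2 the next protein-coding TSS, of the receptor gene Acvr2a, was 3696.7 kb away, and 4 further peaks in that stretch were nearer to Zeb2 than to any other coding gene. The first beyond the limit, at 397.8 kb, scored 28 with 28 ChIP tags against 2. The others lay at 421.8 kb (score 49, 49 tags against 2), 443.5 kb (score 21) and 961.1 kb (score 19). They are not among the 16. On the other side, a peak 183.4 kb downstream lay 0.2 kb from the TSS of Gtdc1 and was left to that gene.

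The 2 stronger Zeb2 peaks held several forkhead sites each. The peak 68.4 kb upstream held 4 sites, a number reached by 6.67% of all peaks, and the peak at 30.2 kb held 2. In the former, GTAAACA on the plus strand and ATAAACA on the minus strand faced each other with 4 bases between them, 28 and 39 bp from the peak centre. Stretches of 200 bp are printed to show this pair and the arrangement in the stronger peak. They are plus strand, mm9, with forkhead sites in capitals (a site on the minus strand reads TGTTTAC or TGTTTAT here).
Zeb2 68.4 kb upstream, chr2:45041207-45041406: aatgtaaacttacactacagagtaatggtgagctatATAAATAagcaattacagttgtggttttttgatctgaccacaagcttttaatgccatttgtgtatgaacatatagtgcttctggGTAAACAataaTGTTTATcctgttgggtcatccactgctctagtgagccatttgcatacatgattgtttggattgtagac
Zeb2 30.2 kb upstream, chr2:45002837-45003036: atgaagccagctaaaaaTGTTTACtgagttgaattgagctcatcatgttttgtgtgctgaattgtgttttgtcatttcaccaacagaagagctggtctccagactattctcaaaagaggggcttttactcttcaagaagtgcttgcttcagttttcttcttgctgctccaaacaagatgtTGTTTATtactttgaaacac

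Zeb1, the paralogue of Zeb2, had 1 peak, near its 5′ end. The gene (ENSMUSG00000024238.5, chromosome 18:5591858-5775465, plus strand) is 183.6 kb long, and the peak at 5592152-5592867 was centred 620 bp after the nearest start of a coding transcript, in intron 1 of Zeb1-001. It scored 17, the lowest value in the list, with 37 ChIP tags against 2 (13.3-fold, 3.42 to 114). Its central 200 bp had 83.5% GC, the highest of the 16, and the whole peak held no forkhead site. The centre lay 72 bp upstream of the TSS of Gm10125, so Zeb1 counted this peak because it falls inside the gene, and had no peak when the nearest TSS was required to be its own. One other peak within 300 kb, 162.8 kb upstream, was nearer to Zfp438.

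Arid5b (ENSMUSG00000019947.8, chromosome 10:67558341-67741474, minus strand, 183.1 kb) had the most peaks, and 6 of the 7 were in its introns. Zeb1, a gene of almost the same length, had 1 inside it. The sequence given to Arid5b by the rule was 311.9 kb, so the density was 22.4 peaks per Mb, the highest of the 5 genes (Zeb2 had 9.22, Satb1 5.95 and Zeb1 2.70). All peaks numbered 3.58 per Mb of sequenced genome. The genes were picked by their peaks, so nothing is read from these densities. More peaks were assigned to 39 genes, and 1899 genes had longer assigned sequence. Altogether 32 genes had exactly 7 peaks. Those just above Arid5b in summed score were 2610203C20Rik, Sdk1, Ptprd, Hmcn1 and Lrba (185 to 205, against 184 for Arid5b).

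**Figure D2:**
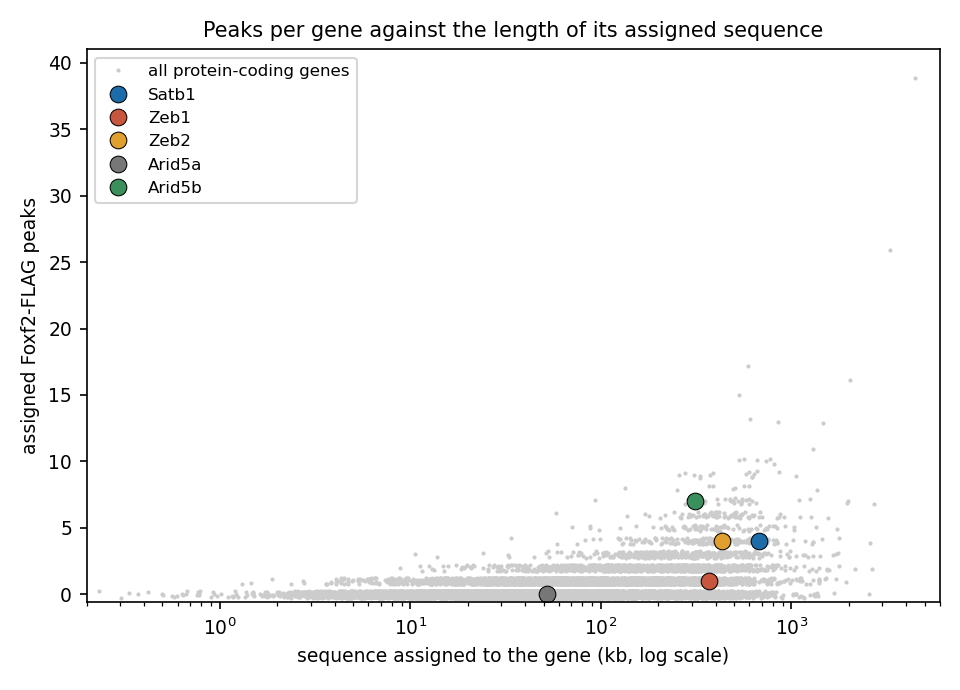
Number of assigned Foxf2-FLAG peaks (y axis) against the length of sequence whose peaks the rule gives to a gene (x axis, kb, log scale) for all protein-coding genes (grey, jittered vertically) and the 5 genes (coloured). Arid5b has 7 peaks over 311.9 kb, whereas Zeb1 has 1 over 369.7 kb and Arid5a none over 51.9 kb.

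The strongest Arid5b peak lay in intron 3 of the long transcript Arid5b-201, 59.3 kb into the gene at 67681759-67682515. It held 127 ChIP tags, second only to the Satb1 peak among the 16, against 9 input tags, the most of the 16. Its 10.1-fold excess (5.16 to 22.6) was the smallest of the group and close to the 10-fold that the caller required, and its score was 43. The only peak outside the gene, 37.0 kb upstream at 67778130-67778761, held 67 tags against 3 (16-fold, 5.25 to 79.5) and scored 35. These 2 had the highest scores at Arid5b, and neither reached those of the best Satb1 and Zeb2 peaks.

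Another Arid5b peak lay at the start of the short coding transcript Arid5b-202, which begins within the gene. The peak at 67598580-67599080 was centred 544 bp after that start, in intron 4 of Arid5b-201, and held 28 ChIP tags against 1 (20.1-fold, 3.32 to 820) at a score of 30. Its GC content of 49.5% was far below the median of 70.5% for all peaks within 1 kb of a TSS. No peak lay within 1 kb of the start of the long transcript. The other 4 peaks scored 17 to 21 with 15 to 20 ChIP tags each against 0 or 1 input tag. One was in intron 4, and the other 3 lay together in intron 8, their centres within 9.2 kb. The one of these without an input tag had a fold of 3.83 against a floor of 3 tags, and the lower limit of its exact 95% interval was 2.76. Peaks 140.0 kb beyond the nearest Arid5b start and 168.2 kb upstream were closer to Rtkn2 and 1700040L02Rik and were left to those genes.

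Both high-scoring Arid5b peaks held a pair of forkhead sites on opposite strands. In the intron 3 peak ATAAACA on the minus strand and GTAAACA on the plus strand lay 13 and 36 bp from the centre, with 16 bases between them. In the upstream peak ATAAATA and GTAAACA were 134 bases apart. In these 2 peaks the minus-strand site came first along the plus strand. Opposite-strand pairs in 2 of the intron 8 peaks ran the other way, with the plus-strand site first, as in the close Zeb2 pair. Their spacing differed from the 4 bases of that Zeb2 pair: 1 pair had 230 bases between its sites, and the sites of the other overlapped. Across the 7 peaks, 5 held a forkhead site (64.3% of all peaks did), and 4 held one in the central 200 bp (40.8% of all peaks did). Stretches of 200 bp are printed to show the pairs in the high-scoring peaks (plus strand, mm9, forkhead sites in capitals).
Arid5b intron 3, chr10:67682064-67682263: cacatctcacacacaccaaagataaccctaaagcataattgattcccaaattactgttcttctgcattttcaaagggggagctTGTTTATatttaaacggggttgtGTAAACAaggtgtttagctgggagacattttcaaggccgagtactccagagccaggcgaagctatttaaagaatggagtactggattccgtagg
Arid5b 37.0 kb upstream, chr10:67778375-67778574: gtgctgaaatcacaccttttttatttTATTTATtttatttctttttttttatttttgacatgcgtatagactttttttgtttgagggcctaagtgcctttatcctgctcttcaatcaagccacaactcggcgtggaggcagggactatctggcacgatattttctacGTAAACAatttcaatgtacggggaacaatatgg

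Arid5a, the paralogue of Arid5b, had no peak. It is a short gene (ENSMUSG00000037447.9, chromosome 1:36364578-36380874, plus strand, 16.3 kb) among other genes: 11 other protein-coding genes had a TSS within 300 kb, and the rule gave Arid5a 51.9 kb of sequence, against 311.9 kb for Arid5b. A longer stretch was given to 10886 genes. The nearest peak on the right was 194.8 kb from its TSSs, 0.1 kb from the TSS of Cnnm3 (score 34, 113 ChIP tags against 8), and those on the left lay 239.3 and 242.6 kb away, at and near the TSS of Hs6st1. The peak centres on either side were 443.4 kb apart, and 16.7% of neighbouring peak centres in the genome were farther apart than that (median 131.1 kb). The list holds only regions above the caller's thresholds, so weaker binding at Arid5a was not detectable.

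**Figure D3:**
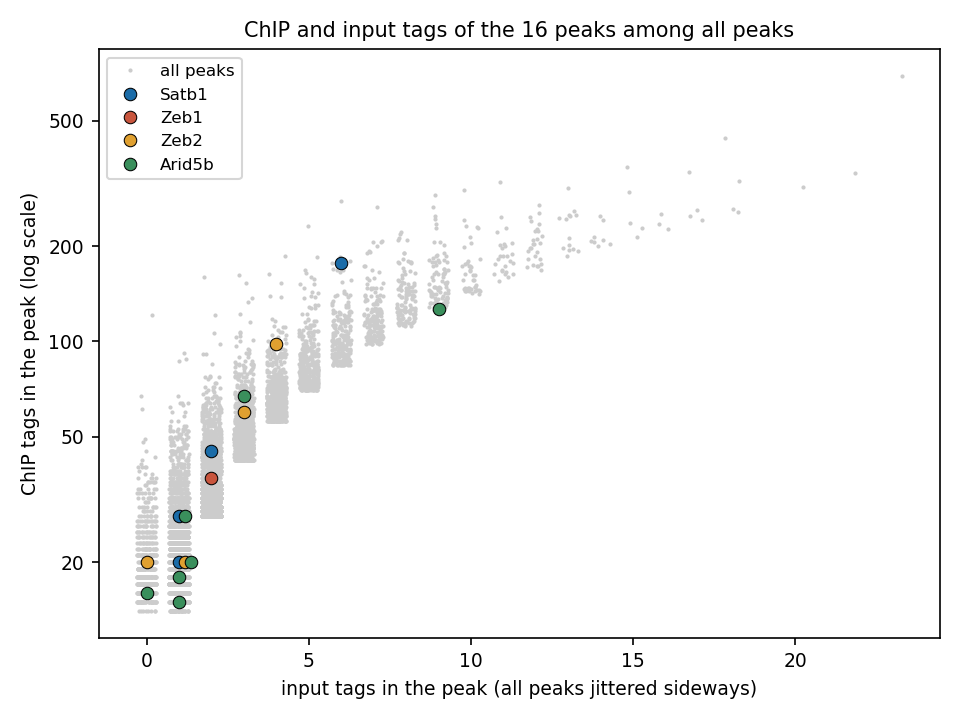
ChIP tags (y axis, log scale) against input tags (x axis) in each peak, for all 9165 peaks (grey, jittered sideways) and the 16 peaks (coloured by gene; peaks with equal values are drawn side by side). The Satb1 peak at 177 tags stands well above the lower edge that the 10-fold limit sets, and the Arid5b peak at 127 tags and 9 input tags lies next to it.

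At the gene starts, 4 of the 5 genes had a peak centre within 1 kb of an annotated TSS of their own, a property of 11.6% of all protein-coding genes. The genes were picked by their peaks, so nothing is read from that contrast. The count of 4 includes Zeb2, whose nearest start within 1 kb belongs to a non-coding transcript. It also includes Zeb1, whose peak was nearer to the TSS of Gm10125. The 4 peaks scored 17 to 30, and none of them was the strongest at Satb1, Zeb2 or Arid5b, whose strongest peaks lay 67.3, 30.2 and 59.3 kb from a TSS. Their GC content split them: 63.0% at Satb1 and 83.5% at Zeb1, but 40.5% at Zeb2 and 49.5% at Arid5b.

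Forkhead sites, which the choice of genes did not use, were about as frequent in the 16 peaks as in the whole list. The central 200 bp held a site in 7 of 16 (43.8%, Wilson 95% interval 23.1 to 66.8), against 40.8% of all 9165 peaks and 18.2% of windows of the same length 2000 bp from each peak. Among the 12 peaks farther than 1 kb from a TSS the count was 6 (50.0%, 25.4 to 74.6), against 51.6% of all such peaks. Over the whole width of the peaks, 12 of 16 held a site (75.0%), as did 64.3% of all peaks. The 23 sites comprised 9 of GTAAACA, 6 of ATAAACA, 5 of ATAAATA and 3 of GTAAATA, and 12 lay within 100 bp of the centre. All 6 peaks with scores of 30 or more held a site, as did 6 of the 10 weaker ones and 64.3% of all peaks, whatever their score. Each of the 6 held at least 2 sites, a number reached by 33.2% of all peaks, again of any score. Among the weaker ones only the Arid5b peaks of scores 20 and 18 held 2 each. This split by score was chosen after the values were seen. Among the 6, 4 were wider than 500 bp, as were 2 of the 10, and a wider peak has more room for a site. Sites of the deposited regions were placed from the region's centre, since the list gives no summit.

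**Figure D4:**
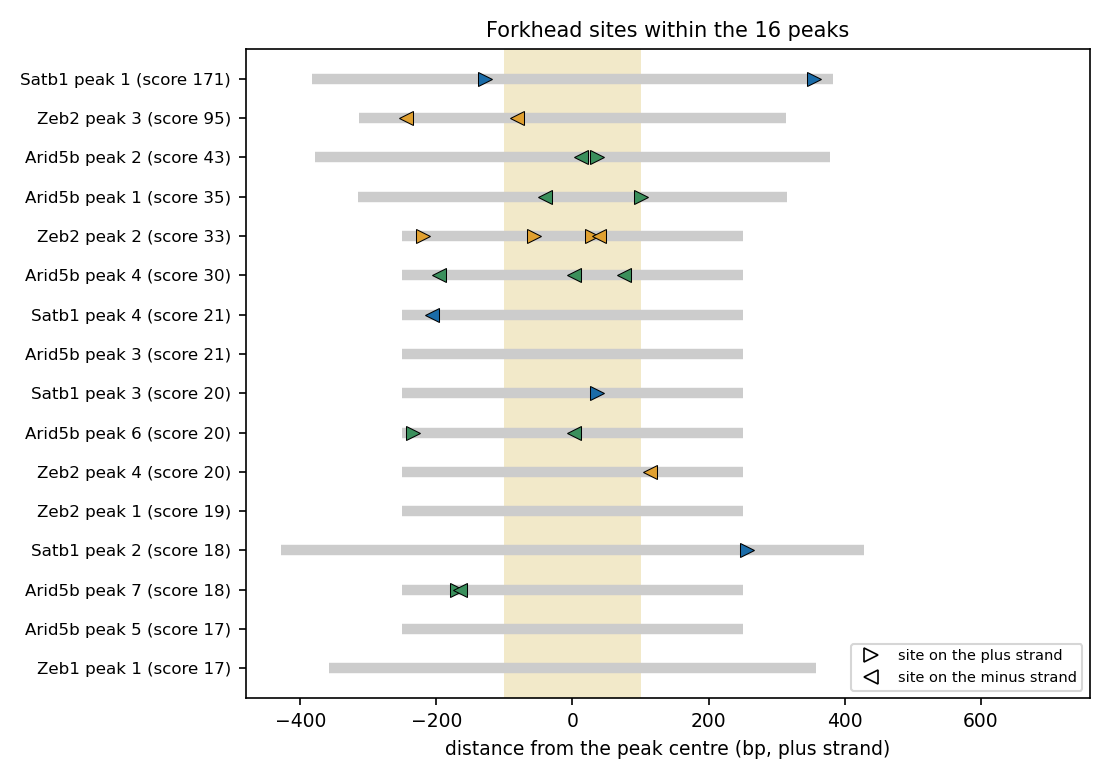
Forkhead sites in the 16 peaks, ordered by score. The x axis is the distance from the peak centre (bp, plus strand), grey bars are the peaks, triangles point along the strand of each site and the shaded band is the central 200 bp. Every peak with a score of 30 or more has 2 to 4 sites, and 4 of the weaker peaks have none.

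Sites of other factors were searched in the same central 200 bp, on both strands. The E-box CACCTG, bound by Zeb1 and Zeb2 themselves, was in none of the 16 peaks (upper limit 19.4%) and in 9.95% of all peaks. AATATT, a core read by Arid5 proteins, was in 1 (6.25%), against 7.09% of all peaks. The E-box CATCTG or CATATG of Twist proteins was in 2 (12.5%, against 20.3%). GATA sites (AGATAA or TGATAA) were in 5 (31.3%, 14.2 to 55.6), against 15% of all peaks, and in 5 of the 16 windows 2000 bp away. The SOX sites AACAAAG or AACAATG were in none, against 10.7% of all peaks. The TEAD site GGAATGT was in none, nor was the AP-1 site TGACTCA, and they were in 3.12% and 2.36% of all peaks. Single peaks held the RUNX site TGTGGTTT or TGTGGTTA, the homeobox core TAATTA or the SP and KLF site GGGCGGGG (the last in the Zeb1 peak), which were in 3.24%, 5.68% and 6.31% of all peaks. The 95% interval of each of these shares included the share of the whole list.

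Genes related to the 5 by family or function also had peaks under the same rule, which gives more sequence to genes whose neighbours are far away. All 8 factors of epithelial-mesenchymal transition listed had at least 1 peak, led by Twist1 (5 peaks, best score 209), Tcf4 (9, best 99), Prrx1 (2, best 45) and Snai2 (1, best 35). Of 13 other ARID genes 7 had one (53.8%), with Kdm5b at a best score of 57, Jarid2 at 53 over 7 peaks, Arid2 at 47 and Arid1b at 40. Of 8 zinc finger homeobox relatives of the Zeb genes 6 had one, among them Zfhx3 with 6, and of 5 CUT or homeobox relatives of Satb1 only Cux1 (6 peaks, best 64) and Cux2 (1, best 19) did. Of 16 corepressors and chromatin partners 8 had one, Ctbp2 (4, best 66) and the Arid5b partner gene Phf2 (2, best 40) among them. The share over all genes was 25.0%.

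No expression was measured in these libraries, so the labelled tissue could not be checked against expressed markers, and only the position of peaks is given. Of 12 mesenchymal genes 10 had a peak (83.3%, against 25.0% of all protein-coding genes), such as Pdgfra (4 peaks) and Col1a2 (5 peaks), each with a best score of 100. Fn1 and Vim had none. Twist1 and Prrx1 are in this list as well. These lists were chosen with earlier results known, so the shares are a description. Of 18 epithelial genes 3 had one (16.7%): Trp63 (best score 87), Krt8 (best 36) and Grhl2 (best 18). Cdh1, the classic target of Zeb repression, had none.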

How the data were processed

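Reads were aligned to mm9, and Bowtie 1.0.0, SAMtools 0.1.19 and HOMER are named, per the submitters' processing notes. Per the file headers, the authors called peaks with HOMER findPeaks in histone style on 1 ChIP library against 1 input library, stitched 500 bp peaks into regions, kept at most 1 tag per position and required a 10-fold excess over input and over the surrounding 10000 bp. The deposited signal per peak is scaled to 10000000 ChIP tags. Scaled back to the library total, it lay within 0.134 of a whole number in every peak. Input tags were deposited as whole numbers, with 0.5 written for none, beside ChIP tags scaled down to the input depth. The deposited fold, score and p-value are the caller's. No p-value is printed.

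Peak ends fitted the NCBIM37 chromosomes, the assembly of mm9, and genes are GENCODE vM1. TSSs were those of every annotated transcript of a protein-coding gene. Fold intervals are exact and conditional on ChIP and input tags, with no allowance for the caller's fold limit, and shares have Wilson 95% intervals. The assignment was tested on simulated data. Sequences were read from NCBIM37. Python 3.11.15, pandas 2.3.3, scipy 1.17.1 and pysam 0.24.0 were used.

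The genes and lists were chosen with earlier results of these data known. Described in full were each gene's highest-scoring peak, its peak nearest to a TSS and any peak among the 100 highest scores. Listed genes were named by best score, at most 4 a list, and others after their values were seen. Other files of the input library were not used here.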

Additional observations from a re-analysis of the deposited data

How the results depend on the processing

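The number of peaks changed most with how strict the peak list was. With scores at or above the median of all peaks there were 6. A fold of at least 15 left 8, and at least 30 ChIP tags left 7. Such cuts also remove many peaks of other genes, so the drop is not particular to the 16. Of all peaks 48.7% scored above their median, and their median ChIP tags and fold were 30 and 12.9. The exact shares of all peaks passing these cuts were not worked out. Other ways of assigning peaks gave 13 to 20. There were 15 with the nearest TSS required to be the gene's own (Zeb1 then had 0). With 1 TSS per gene there were also 15 (Satb1 then had 3). A limit of 100 kb gave 13 (Satb1 then had 2), a limit of 1 Mb 20 (Zeb2 then had 8), and any base of the peak 16. Using only TSSs of protein-coding transcripts, chosen after seeing the data, also gave 16. Arid5a had 0 under each of these. The share of peaks with a forkhead site was 37.5% in 100 bp, 62.5% in 400 bp and 75.0% over the whole peak, against 23.9%, 58.1% and 64.3% of all peaks, and 37.5% against 32.4% with GTAAACA or ATAAACA only. Leaving out 1 gene at a time moved it between 33.3% (without Arid5b) and 50.0% (without Satb1), and the median score between 20 and 21. With 1 library of each kind, biological spread could not be measured, and peaks with 0 to 2 input tags have folds known only within wide counting limits. No paired analysis was possible because each group had 1 library and no test was made.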

Other observations

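Long dinucleotide repeats were present in 3 of the 4 Zeb2 peaks. The peak in the gene held a run of 50 bp of alternating G and A, as did the peak 294.2 kb upstream over 54 bp, and the peak 30.2 kb upstream held 40 bp of alternating T and A. Runs of at least 40 bp, a length chosen after the values were seen, occurred in 4.96% of all peaks and in none of the other 13 peaks of the 5 genes. These 3 peaks had 0, 1 and 4 input tags. How repeats affect the alignment of tags to them was not tested.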
